A study of Mus musculus with 16 samples.

Results

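The knockout effect that male and female livers shared was described across genes, from 16 liver RNA-seq libraries. Genes were matched on the Ensembl identifiers present in both deposited tables, which left 23167 of the 24623 identifiers of the male table and the 24840 of the female table. For each gene the difference between knockout and floxed livers was taken within each table, and the mean of the 2 differences is called the average effect below. After genes with low counts had been removed, 16126 genes were tested. A gene was called common to both tables when its average effect passed the test and its knockout and floxed libraries did not overlap, in the same direction, in either table. By that rule 198 genes were common, 86 of them higher and 112 lower in the knockout (51 higher and 176 lower when scaled by library totals alone).

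Mice with a floxed Matr3 gene were compared with floxed littermates that also carried Albumin-Cre, a Cre recombinase driven by the albumin promoter and therefore active in hepatocytes. These liver-specific knockout animals are called LKO. Floxed and LKO mice of each sex made 4 groups of 4 mice, and the male and female libraries came in separate tables of 8. All 16 mice had eaten a high-fat diet (60% fat) for 16 weeks from 7 weeks of age and had been fasted for 12 hours. The comparison therefore says nothing of livers on chow. Library totals ranged from 30495505 to 36496193 counts. Levels are given as CPM, the count of a gene scaled to the library size, and changes as log2 fold changes of LKO over floxed.

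Matrin-3, the product of Matr3, is an abundant nuclear protein that binds RNA and DNA. It is known as a component of the nuclear matrix and as a regulator of alternative splicing that often represses exons, and it also affects the stability and nuclear retention of RNAs. Albumin-Cre deletes floxed exons in hepatocytes, while endothelial cells, Kupffer cells and stellate cells keep an intact gene.

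Matr3 itself (ENSMUSG00000037236) was at 55.9, 53.6, 61.7 and 60.0 CPM in the male floxed livers against 34, 36.9, 36.6 and 34.3 in the male LKO livers, and 52.4, 64, 56.2 and 59.9 in the female floxed livers against 39.8, 36.6, 37.6 and 38.3 in the female LKO livers. Every LKO library was below every floxed library of its table. The average effect was a 1.58-fold lower level (log2 change -0.66 ± 0.05 (SE), adjusted p = 7.68e-07), with -0.71 in males and -0.61 in females. An exact permutation test of this single gene, with genotypes regrouped within each table, gave p = 0.000408 (two-sided), the smallest value that 4900 regroupings allow. The deleted exons are not given in the sources used here, so it is not known which part of these reads lay inside the deletion. In bulk liver RNA, fewer cells of a type and less RNA per cell cannot be told apart, here or in the results below. Xist was at 0.19 CPM or less in the male libraries and at 411 CPM or more in the female libraries, and no 2 replicates of a group agreed within counting noise. Among the female libraries, a principal component analysis with the mean of each table removed set floxed 4 and LKO 7 apart from their groups on its leading axis (-10.4 for floxed 4 against -40.2 to -33.9 for the other female floxed livers, and 6.61 for LKO 7 against 32.0 to 42.3 for the other female LKO livers).

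The sequences just upstream of 4 of the genes described first are shown because, with Matr3 and predicted models set aside, these genes had the smallest p among the lowered (Dcaf8 and Arsk) and raised (Taf4 and Eps15l1) common genes. Each line is the 250 bases before the annotated start of the gene, from RefSeq promoter entries on the build GRCm38.p6 (mm10), written 5′ to 3′ on the strand of the gene. Capitals mark exact matches to CCAAT, to the GC box GGGCGG, to the palindromic NRF1 motif, to the cyclic AMP response element TGACGTCA or to the ETS motif CCGGAAG, searched on both strands, so that CCGCCC and ATTGG are also matches.
Dcaf8 (chr1:172147765-172148014, plus strand): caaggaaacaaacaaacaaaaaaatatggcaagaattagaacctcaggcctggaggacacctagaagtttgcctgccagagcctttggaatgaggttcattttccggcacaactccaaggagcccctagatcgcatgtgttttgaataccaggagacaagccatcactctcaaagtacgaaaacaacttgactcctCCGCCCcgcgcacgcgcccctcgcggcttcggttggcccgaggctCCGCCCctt
Arsk (chr13:76098661-76098910, minus strand): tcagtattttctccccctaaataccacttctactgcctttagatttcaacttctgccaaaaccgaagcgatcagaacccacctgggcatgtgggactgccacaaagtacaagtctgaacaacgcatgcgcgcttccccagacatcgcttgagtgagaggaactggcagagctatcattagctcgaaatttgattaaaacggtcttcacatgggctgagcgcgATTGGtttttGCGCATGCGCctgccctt
Taf4 (chr2:179976647-179976896, minus strand): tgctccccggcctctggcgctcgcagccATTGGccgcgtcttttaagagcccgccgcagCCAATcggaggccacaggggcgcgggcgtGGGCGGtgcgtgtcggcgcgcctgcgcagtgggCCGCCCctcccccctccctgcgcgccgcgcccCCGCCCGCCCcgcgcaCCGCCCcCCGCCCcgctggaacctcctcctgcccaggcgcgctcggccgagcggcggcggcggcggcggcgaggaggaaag
Eps15l1 (chr8:72421475-72421724, minus strand): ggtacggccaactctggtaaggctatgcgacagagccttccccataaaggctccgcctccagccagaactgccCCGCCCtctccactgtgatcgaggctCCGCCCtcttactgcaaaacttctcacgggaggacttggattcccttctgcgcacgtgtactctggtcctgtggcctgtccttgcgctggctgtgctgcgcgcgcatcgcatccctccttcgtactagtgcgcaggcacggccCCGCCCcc
The Dcaf8 window held 2 GC boxes and 13 CpG dinucleotides. The Arsk window held 1 CCAAT box and 1 NRF1 motif, with 12 CpG dinucleotides. Taf4 had the most GC-rich of the 4 windows, 80.4% G and C with 40 CpG dinucleotides, and held 2 CCAAT boxes and 6 GC boxes, of which neighbouring ones can share bases. Eps15l1 had 3 GC boxes and 18 CpG dinucleotides. Over the 11472 tested genes with such a promoter entry, a 250-base window held a GC box in 55.7%, CCAAT in 36.1%, the NRF1 motif in 1.49%, the response element in 2.59% and the ETS motif in 12.9%. These are letter matches and no protein was measured on them. Shares of motifs among the common genes are not given, because only 66.3% of the higher and 66.1% of the lower common genes had an entry.

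The first question was how much of the knockout effect the male and female livers had in common. The average effect was called for 1379 genes (8.55% of those tested, edgeR quasi-likelihood test, Benjamini-Hochberg adjusted p under 0.05), 653 higher (4.05%) and 726 lower (4.5%) in LKO. Scaled by library totals alone, 376 were higher and 1079 lower, and the median of all genes moved to -0.05 on the log2 scale from -0.007. The count depended on single libraries: it was 860 without male floxed 3, 788 without male LKO 6, 895 without male LKO 8, 820 without female floxed 2, 837 without female LKO 5 and 2252 without female LKO 7. Of the 1379 genes, 1210 had the same sign in both tables and 169 had opposite signs, so an average effect alone does not show a change in both. Absence of overlap in both tables in the same direction was met by 205 genes (1.27% of those tested), of which 198 were also called (1.23%). The 205 were 89 higher (0.552%) and 116 lower (0.719%). The 198 became 309 without female floxed 4. The count is 0.533% of the genes tested for the 86 higher ones and 0.695% for the 112 lower ones.

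Changes of the common genes were mostly modest. The median log2 change was 0.50 over the higher and -0.63 over the lower genes, and 18 higher and 24 lower genes changed by at least 1 on the log2 scale. The female change was the larger in 155 of the 198 genes and the male change in 43. For the lower genes the median was -0.55 in males and -0.76 in females, and for the higher genes it was 0.42 and 0.53. The difference between the effects in the 2 tables was itself called for 10 of the 198 genes, against 713 of all genes tested (4.42%). The 713 were between 407 and 464 without male LKO 5, 7 or 8 or female floxed 1, floxed 2 or LKO 5, in turn, 1134 without female floxed 4 and 1435 without female LKO 7. Among those 10 were Gm31333, BC049987, Treh, 4930404H11Rik, Car1, Cd59b, Hsd3b2, Lepr and Echdc3. Lepr, the leptin receptor, which was picked after its values were seen, had the widest gap among the raised ones, with a log2 change of 0.74 in males and 3.76 in females.

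**Figure D1:**
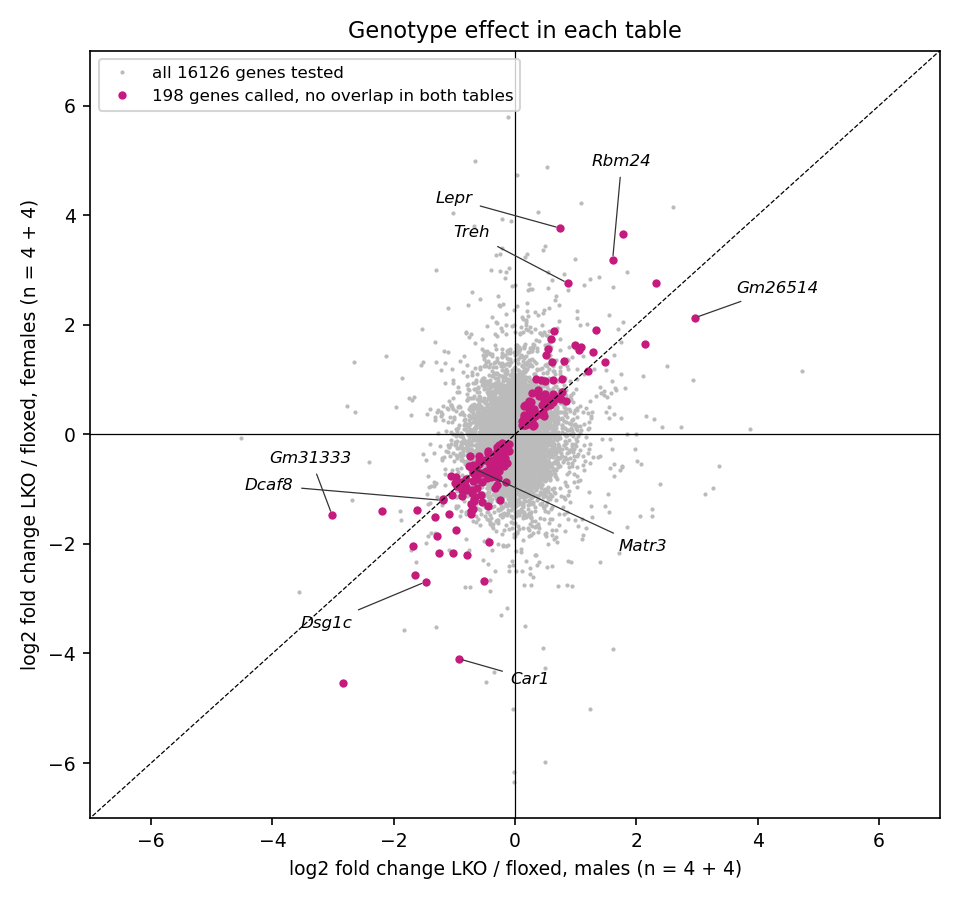
Log2 fold change of LKO over floxed livers in males (horizontal axis, 4 against 4) and in females (vertical axis, 4 against 4) for the 16126 genes tested (grey points), with the 198 common genes as larger points and the diagonal of equal change dashed. The common genes lie in the lower left and upper right fields by the rule that chose them, and 155 of the 198 lie farther from 0 on the female axis than on the male axis.

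Each table fitted alone gave a smaller set. In males 160 of 15355 genes were called (1.04%) and in females 1433 of 15432 (9.29%). Of the 14921 genes tested in both, 56 were called in both tables with the same direction (0.375%), 15 higher and 41 lower. They were 37.3% of the 150 male-called genes and 3.99% of the 1402 female-called genes. Without male LKO 5 the 56 became 36. All 56 were called for the average effect, and 51 were common by the rule above. The other 5 (Gm34667, Cyp2c54, Ugt2a3, Gm1600 and Slc22a30) overlapped between groups in females.

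The sign of the change agreed unevenly between the tables. Over all 14921 genes, 54.0% had the same sign in males and females. Among genes called in the male table the share was 78.7% (118 of 150), and among those called in the female table it was 56.1% (787 of 1402). Of the 150 male-called genes, 78 (52.0%) also had the same sign and an unadjusted p under 0.05 in females, against 16.0% of all genes. Of the 1402 female-called genes, 215 (15.3%) did so in males, against 7.48%. Another 7 genes (0.0469%) were called in both tables in opposite directions. In males Fasn, which makes fatty acids, changed by 0.81 (adjusted p = 0.0042), and in females by -1.45 (adjusted p = 0.0201). Pklr, the liver pyruvate kinase, changed by 1.03 and -0.85, and Acly, which supplies cytosolic acetyl-CoA, by 0.40 and -0.88. Pdk1, Tkt and Ugt1a5 were also higher in male and lower in female LKO livers, while C8b was lower in males and higher in females.

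Dcaf8, a substrate receptor of the CUL4-DDB1 ubiquitin ligase, had the smallest p of all genes tested. The gene (ENSMUSG00000026554) lies at chr1:172148084-172197005, plus strand (mm10). It stood at 169, 187, 186 and 178 CPM in the male floxed livers against 82.1, 75.7, 79.3 and 77.6 in the male LKO livers, and 175, 176, 168 and 157 in the female floxed livers against 72.5, 75.8, 71.7 and 73.4 in the female LKO livers. The level fell 2.3-fold (log2 change -1.2 ± 0.04 (SE), adjusted p = 2.39e-11), and the fall was nearly equal in size in the 2 tables (-1.2 in males and -1.21 in females), with a difference of -0.01 (adjusted p = 0.966). Dcaf8 fell further than Matr3 did. It overlaps Pea15a on the other strand, and the strand setting of the counting is not given in the sources used here.

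Klhl7 and Asb3, which belong to other ubiquitin ligases, fell as well. Klhl7, a substrate adaptor for CUL3, ranged over 14.5 to 18 CPM in male floxed and 9.02 to 10.7 in male LKO livers, and 14.9 to 18.9 in female floxed and 9.02 to 11.4 in female LKO livers (log2 change -0.74 ± 0.07 (SE), adjusted p = 1.22e-05). Asb3, a SOCS-box protein of the CUL5 family of ligases, was at 5.24, 5.54, 5.04 and 5.41 CPM in the male floxed livers against 3.08, 2.87, 2.66 and 2.36 in the male LKO livers, and 5.15, 5.88, 5.23 and 6.87 in the female floxed livers against 3.28, 3.06, 2.98 and 2.78 in the female LKO livers (log2 change -0.94 ± 0.08 (SE), adjusted p = 6.64e-06). The LKO values of either sex lay below every floxed value.

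**Figure D2:**
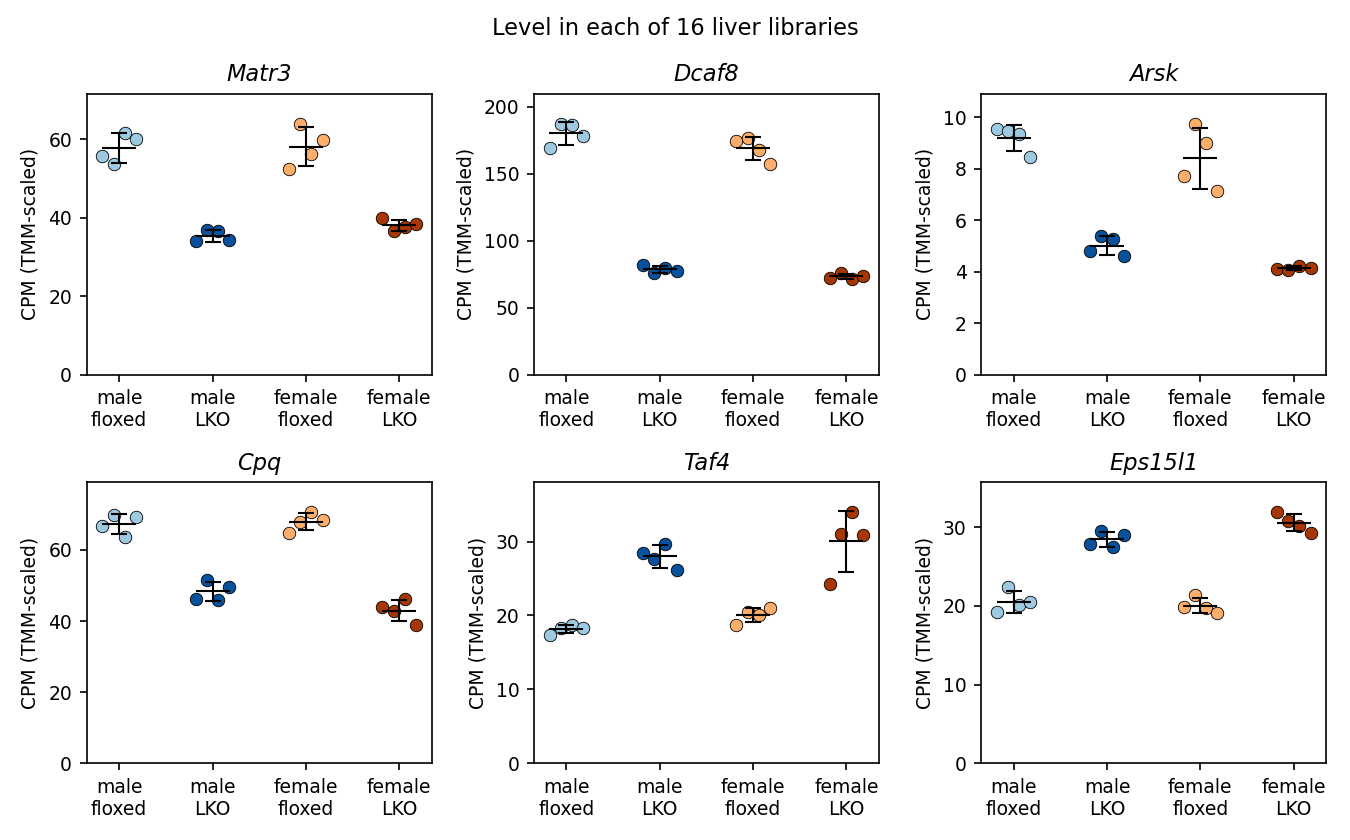
Level of Matr3, of 3 lowered genes (Dcaf8, Arsk, Cpq) and of 2 raised genes (Taf4, Eps15l1) in CPM in each of the 16 libraries, with 1 point a mouse and the mean ± SD of each group of 4. In every panel the LKO points lie on one side of the floxed points of the same sex. For all panels but Matr3 this follows from the rule that chose the genes. Dcaf8 drops from between 157 and 187 CPM to between 71.7 and 82.1 CPM.

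Mgmt, Ascc3, Oxr1 and Nthl1 were also lower in LKO livers. Mgmt, which removes alkyl groups from guanine in DNA, was at 32.1, 31.3, 31.1 and 39 CPM in the male floxed livers against 20.3, 21.1, 20.7 and 21.7 in the male LKO livers, and 28, 23.5, 26.7 and 21.7 in the female floxed livers against 10.8, 8.7, 13.2 and 10.4 in the female LKO livers. Male floxed 4 was the highest of all, and the genotypes did not overlap in either sex (log2 change -0.94 ± 0.08 (SE), adjusted p = 3.51e-06). Ascc3, a helicase used in repair of alkylated DNA and in rescue of stalled ribosomes, fell (log2 change -0.90 ± 0.08 (SE), adjusted p = 7.88e-06) and ranged over 18.9 to 21 CPM in male floxed and 7.87 to 11.6 in male LKO livers, and 19.8 to 23.5 in female floxed and 11.3 to 14 in female LKO livers. Oxr1, which protects cells against oxidative damage, ranged over 66.5 to 69.2 CPM in male floxed and 38.7 to 48.8 in male LKO livers, and 58.2 to 66.6 in female floxed and 43.7 to 48.5 in female LKO livers (log2 change -0.53 ± 0.05 (SE), adjusted p = 7.97e-06). Nthl1, a DNA glycosylase that removes oxidized bases, changed less, by -0.29 in males and -0.36 in females (average -0.33, adjusted p = 0.039).

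The hydrolase genes Arsk and Cpq fell, as did Gm2a. Arsk, a lysosomal sulfatase that acts on glucuronate in glycosaminoglycans, lies at chr13:76060422-76098660, minus strand, and was at 9.56, 9.48, 9.33 and 8.45 CPM in the male floxed livers against 4.79, 5.38, 5.29 and 4.59 in the male LKO livers, and 7.71, 9.75, 9.0 and 7.15 in the female floxed livers against 4.11, 4.08, 4.23 and 4.15 in the female LKO livers. Its level was 1.93-fold lower in LKO (log2 change -0.95 ± 0.07 (SE), adjusted p = 1.24e-06), and the female LKO values differed little among themselves. Cpq, a secreted carboxypeptidase that spans 511424 bases at chr15:33083129-33594552, plus strand, was at 66.9, 69.9, 63.7 and 69.3 CPM in the male floxed livers against 46.1, 51.6, 46 and 49.5 in the male LKO livers, and 64.8, 67.8, 70.7 and 68.6 in the female floxed livers against 44, 42.8, 46.1 and 38.9 in the female LKO livers. The fall was smaller but the groups were well apart (log2 change -0.57 ± 0.04 (SE), adjusted p = 1.41e-06). Gm2a, the activator protein that presents ganglioside GM2 for lysosomal breakdown, changed by -0.23 in males and -0.54 in females (average -0.38, adjusted p = 0.0167).

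Gckr, Abcc2, Cyp2a12, Sugct, Lipc and Slco1a4, which serve metabolism and transport in hepatocytes, were lower. Gckr, the regulatory protein that holds glucokinase in the nucleus, ranged over 291 to 357 CPM in male floxed and 202 to 238 in male LKO livers, and 255 to 324 in female floxed and 106 to 179 in female LKO livers (log2 change -0.83 ± 0.09 (SE), adjusted p = 7.06e-05). Abcc2, the canalicular pump for bilirubin conjugates, ranged over 715 to 927 CPM in male floxed and 523 to 641 in male LKO livers, and 632 to 839 in female floxed and 418 to 484 in female LKO livers (log2 change -0.63 ± 0.07 (SE), adjusted p = 8.94e-05). Cyp2a12, a cytochrome P450 of drug and steroid oxidation, ranged over 652 to 802 CPM in male floxed and 542 to 584 in male LKO livers, and 539.9 to 664 in female floxed and 341 to 361 in female LKO livers (log2 change -0.58 ± 0.06 (SE), adjusted p = 1.17e-05). Reads of Cyp2a12 can be shared with other Cyp2a genes, so its level is uncertain to that extent. Sugct, a coenzyme A transferase for glutarate, ranged over 53.5 to 63.7 CPM in male floxed and 34.2 to 39 in male LKO livers, and 40.4 to 48.1 in female floxed and 14.3 to 25.7 in female LKO livers (log2 change -0.99 ± 0.09 (SE), adjusted p = 9.41e-06). Lipc, the hepatic lipase that acts on lipoproteins, changed by -0.29 in males and -0.92 in females (average -0.60, adjusted p = 0.00278). Slco1a4, an uptake transporter for organic anions, changed by -0.84 in males and -0.99 in females (average -0.91, adjusted p = 0.0129).

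Nlrp6, Afm, Dsg1c and Car1 followed. Nlrp6, a sensor protein that can assemble an inflammasome, was at 208, 194, 223 and 241 CPM in the male floxed livers against 124, 109.6, 115 and 127 in the male LKO livers, and 278, 275, 241 and 205 in the female floxed livers against 133, 149.6, 153 and 112 in the female LKO livers. The change was -0.87 in males and -0.87 in females (log2 change -0.87 ± 0.08 (SE), adjusted p = 7.88e-06). Afm, a plasma vitamin E-binding protein of the albumin family, ranged over 160.5 to 177 CPM in male floxed and 97 to 121 in male LKO livers, and 165 to 214 in female floxed and 69.9 to 117 in female LKO livers (log2 change -0.90 ± 0.09 (SE), adjusted p = 3.31e-05). Dsg1c, a desmosomal cadherin, was 4.24-fold lower (log2 change -2.08 ± 0.22 (SE), adjusted p = 2.87e-05), at 15.8, 19.9, 18.1 and 12.3 CPM in the male floxed livers against 6.24, 7.65, 4.55 and 5.36 in the male LKO livers, and 7.9, 9.11, 5.89 and 3.17 in the female floxed livers against 0.525, 1.21, 1.49 and 0.794 in the female LKO livers. Of the 4 female floxed livers, floxed 4 was the lowest for Dsg1c and still lay above all female LKO values. Car1, a carbonic anhydrase, was at 6.18, 6.49, 6.07 and 6.49 CPM in the male floxed livers against 3.08, 3.75, 3.06 and 3.33 in the male LKO livers, and 2.44, 3.41, 3.02 and 1.33 in the female floxed livers against 0, 0.0956, 0.447 and 0.0305 in the female LKO livers. The female LKO libraries were at or near 0, so the female log2 change of -4.1 rests on few counts. The difference between the tables was called (adjusted p = 0.0116).

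Lowered genes also included Immp2l, a subunit of the mitochondrial inner membrane peptidase (log2 change -0.71 ± 0.07 (SE), adjusted p = 1.17e-05), Lrit1, a leucine-rich repeat membrane protein (log2 change -0.93 ± 0.10 (SE), adjusted p = 4.44e-05), and Gprasp1, which sorts G-protein-coupled receptors (log2 change -0.88 ± 0.10 (SE), adjusted p = 6.14e-05). Immp2l ranged over 24 to 28.2 CPM in male floxed and 16.9 to 18.9 in male LKO livers, and 19.4 to 26.7 in female floxed and 11 to 13.6 in female LKO livers. Lrrn3 lies inside the Immp2l locus on the other strand. Reads may be shared between the 2 genes, because the strand setting is not known and overlap of their exons was not examined. Lrit1 ranged over 14.3 to 18.5 CPM in male floxed and 9.82 to 11.6 in male LKO livers, and 14.7 to 19.6 in female floxed and 6.21 to 10.6 in female LKO livers. In each the LKO livers lay below the floxed livers of the same sex. Hnf4aos, an RNA antisense to Hnf4a, was at 5.01, 6.09, 11.6 and 8.01 CPM in the male floxed livers against 3.02, 3.11, 3.53 and 2.94 in the male LKO livers, and 6.48, 5.33, 5.89 and 5.3 in the female floxed livers against 1.82, 1.4, 1.31 and 1.77 in the female LKO livers (log2 change -1.58 ± 0.15 (SE), adjusted p = 1.13e-05). Male floxed 3 was high for it. Without knowledge of the strand setting, reads of Hnf4aos and Hnf4a cannot be told apart where their exons overlap, which was not examined. Hnf4a itself, the main transcription factor of hepatocyte identity, had an average effect of 0.17, adjusted p = 0.156.

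Raised genes had the smaller median change. Eps15l1, an adaptor of clathrin-mediated endocytosis at chr8:72340999-72421460, minus strand, was at 19.2, 22.4, 20.1 and 20.4 CPM in the male floxed livers against 27.9, 29.6, 27.4 and 29 in the male LKO livers, and 19.9, 21.3, 19.7 and 19.1 in the female floxed livers against 31.9, 30.8, 30.2 and 29.3 in the female LKO livers. It was 1.46-fold higher (log2 change 0.54 ± 0.04 (SE), adjusted p = 1.85e-06) with little spread within groups. Trak2, an adaptor that links mitochondria to kinesin, ranged over 25.8 to 28.9 CPM in male floxed and 30.3 to 34 in male LKO livers, and 25.5 to 28.4 in female floxed and 34.5 to 40.1 in female LKO livers (log2 change 0.35 ± 0.05 (SE), adjusted p = 3.40e-04). Sec31b, a coat protein of vesicles that leave the endoplasmic reticulum, ranged over 10.2 to 12.6 CPM in male floxed and 15.7 to 18.3 in male LKO livers, and 12.6 to 15.5 in female floxed and 19.3 to 22.3 in female LKO livers (log2 change 0.55 ± 0.06 (SE), adjusted p = 7.93e-05). Fam160a2, part of a complex that connects endosomes with dynein, changed by 0.34 in males and 0.35 in females (average 0.34, adjusted p = 1.70e-04).

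Taf4, Ercc3 and Pknox1, which act in transcription, rose. Taf4, a subunit of the general transcription factor TFIID, lies at chr2:179912152-179976646, minus strand, and was at 17.3, 18.2, 18.7 and 18.3 CPM in the male floxed livers against 28.5, 27.7, 29.7 and 26.1 in the male LKO livers, and 18.7, 20.5, 20.1 and 21 in the female floxed livers against 24.2, 31.1, 34 and 30.9 in the female LKO livers. Female LKO 5 was the lowest of its group but above all female floxed livers (log2 change 0.60 ± 0.06 (SE), adjusted p = 1.76e-05). Ercc3, a helicase subunit of TFIIH that also serves nucleotide excision repair, ranged over 21.5 to 23.9 CPM in male floxed and 28.2 to 33.4 in male LKO livers, and 15.9 to 17.8 in female floxed and 20.8 to 22.1 in female LKO livers (log2 change 0.40 ± 0.05 (SE), adjusted p = 7.39e-05). Pknox1, a homeodomain transcription factor that pairs with PBX proteins, was at 11.9, 11.7, 12.1 and 11.1 CPM in the male floxed livers against 16.8, 15.3, 17.6 and 16.6 in the male LKO livers, and 15.5, 14.6, 15.2 and 18.3 in the female floxed livers against 23.4, 22, 23.2 and 23.5 in the female LKO livers. Its floxed level was higher in females than in males, and the change was 0.50 in males and 0.53 in females (log2 change 0.52 ± 0.05 (SE), adjusted p = 1.95e-05), a difference of 0.03 between them (adjusted p = 0.915).

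The zinc finger genes Zfp655, Zfp182 and Zfp874a were raised too. Zfp655 ranged over 35.2 to 44.3 CPM in male floxed and 59 to 64.1 in male LKO livers, and 33.2 to 44.6 in female floxed and 49.3 to 69 in female LKO livers (log2 change 0.67 ± 0.08 (SE), adjusted p = 8.18e-05). Zfp182, on the X chromosome, ranged over 5.23 to 6.35 CPM in male floxed and 7.86 to 11 in male LKO livers, and 4.38 to 6.2 in female floxed and 7.94 to 10.1 in female LKO livers (log2 change 0.77 ± 0.09 (SE), adjusted p = 9.26e-05). Zfp874a changed by 0.42 in males and 0.36 in females (average 0.39, adjusted p = 6.38e-04).

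Treh, BC049987, Gal3st1 and Ocstamp were raised as well, and of these the difference between the sexes was called for Treh and BC049987 only. Treh, which splits the sugar trehalose, was at 5.41, 5.97, 4.42 and 6.2 CPM in the male floxed livers against 8.65, 12.6, 8.84 and 10.1 in the male LKO livers, and 0.247, 0.32, 0.748 and 0.801 in the female floxed livers against 5.59, 2.9, 2.18 and 3.66 in the female LKO livers. Its log2 change was 0.87 in males and 2.76 in females, and this difference was called (adjusted p = 0.0206). BC049987, which lies beside Treh on chromosome 9 (BC049987 at chr9:44670453-44672238, minus strand; Treh at chr9:44673233-44686305, plus strand), showed a like pattern, with 0.65 in males and 1.89 in females. It ranged over 15.5 to 23.5 CPM in male floxed and 24.1 to 36.7 in male LKO livers, and 0.815 to 1.59 in female floxed and 2.77 to 4.94 in female LKO livers, so both genes stood lower in female than in male floxed livers. Gal3st1, the sulfotransferase that makes sulfatide, ranged over 3.48 to 5.89 CPM in male floxed and 6.34 to 8.22 in male LKO livers, and 2.31 to 3.24 in female floxed and 5.51 to 8.16 in female LKO livers (log2 change 1.07 ± 0.12 (SE), adjusted p = 7.39e-05). Ocstamp, a membrane protein of fusing osteoclasts, ranged over 0.554 to 1.04 CPM in male floxed and 1.27 to 1.96 in male LKO livers, and 0.582 to 1.7 in female floxed and 2.83 to 3.8 in female LKO livers (log2 change 1.31 ± 0.20 (SE), adjusted p = 9.46e-04), a low level in all groups.

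**Figure D3:**
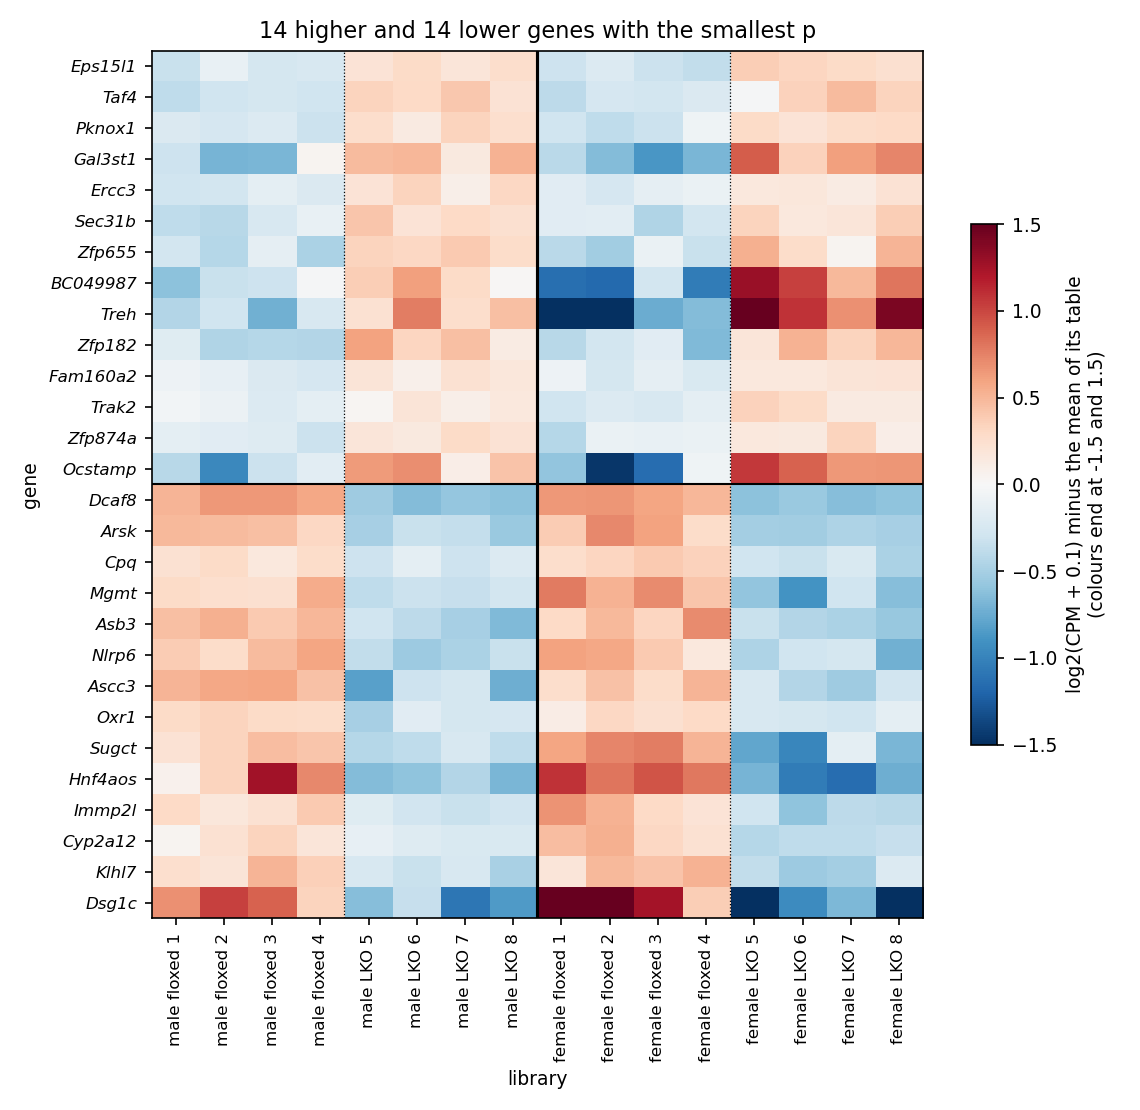
Level of the 14 higher (top) and 14 lower (bottom) named genes in each library, on a log2 scale as the difference from the mean of the gene over the 8 libraries of its table, with males left and females right of the thick line. Floxed and LKO values do not overlap within either table for any of the 28 genes by the rule that chose them, though a library near the mean of its table can carry the colour of the other genotype, as female LKO 5 does for Taf4 and male floxed 4 for Gal3st1, while Treh, BC049987 and Dsg1c show the strongest colours in females.

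Of the 198 common genes, 30 were predicted or clone-named models. The 3 with the smallest p were Gm4788, Gm31333 and Gm42642. Gm4788, a predicted protein-coding gene at chr1:139697623-139781243, minus strand, was at 199.9, 251, 237 and 201 CPM in the male floxed livers against 67.8, 78.6, 74.2 and 70.7 in the male LKO livers, and 169, 199, 208 and 171 in the female floxed livers against 59.7, 79.2, 82.5 and 63.5 in the female LKO livers, a 2.83-fold lower level (log2 change -1.5 ± 0.08 (SE), adjusted p = 1.53e-08). It sits with near-identical relatives of complement factor H, so reads may be split among them. Gm31333 ranged over 4.49 to 7.6 CPM in male floxed and 0.423 to 0.987 in male LKO livers, and 4.28 to 6.84 in female floxed and 1.67 to 2.11 in female LKO livers (log2 change -2.25 ± 0.16 (SE), adjusted p = 6.47e-07), further in males than in females (-3.02 in males and -1.47 in females). Gm42642, a short model at chr6:3182630-3182984, minus strand, was higher in LKO (log2 change 2.54 ± 0.18 (SE), adjusted p = 6.47e-07) but low throughout, with 0.119 to 0.277 CPM in male floxed and 0.928 to 1.33 in male LKO livers, and 0.218 to 0.339 in female floxed and 1.55 to 2.39 in female LKO livers.

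The lowered genes included very long ones, and the annotated length of the gene locus was not used to choose them. Among 112 tested genes longer than 500 kb, 18 were called lower (16.1%, against 4.5% of all genes tested), and the rest were not called. Among 548 genes of 200 to 500 kb, 47 were lower (8.58%) and 19 higher (3.47%). In the shorter classes the lower share ran between 3.01% and 5.23%. The median length was 38.0 kb for the common lower, 21.1 kb for the common higher and 19.5 kb for all genes tested. The median level was 2.34 log2 CPM over 500 kb, 3.98 at 20 to 50 kb and 0.86 below 5 kb, where the lower share was 3.01%. Genes are not independent replicates, and these shares are given as a description. They were not recomputed with libraries left out.

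Of the 18, 10 were common to both tables, among them Fhit, Naaladl2, Immp2l, Cdh18, Wwox, Sugct, Grid1, Vps13b and Cpq. Fhit, a dinucleotide hydrolase gene of 1611944 bases at a known fragile site, changed by -0.70 in males and -1.37 in females (average -1.03, adjusted p = 0.00191). Wwox, an oxidoreductase gene at another fragile site (913054 bases), changed by -0.47 in males and -0.80 in females (average -0.63, adjusted p = 0.00414). Grid1, a glutamate receptor subunit better known from brain, had the largest fall of the 10, -1.65 in males and -2.57 in females (average -2.11, adjusted p = 9.56e-05). Vps13b, a lipid transfer protein of the Golgi, changed by -0.44 in males and -0.30 in females. The other 8 were Ptprd, Nkain2, Erbb4, Exoc4, Fars2, Ntrk3, Mir99ahg and Atrnl1, for which the groups overlapped in at least 1 table. Ptprd changed by -0.04 in males and -0.51 in females, and Exoc4 by -0.005 in males and -0.55 in females. For both, the edgeR test called the difference between tables (adjusted p = 0.0392 and 0.0141). Erbb4, a receptor for neuregulins, had -0.53 in males and -2.3 in females.

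**Figure D4:**
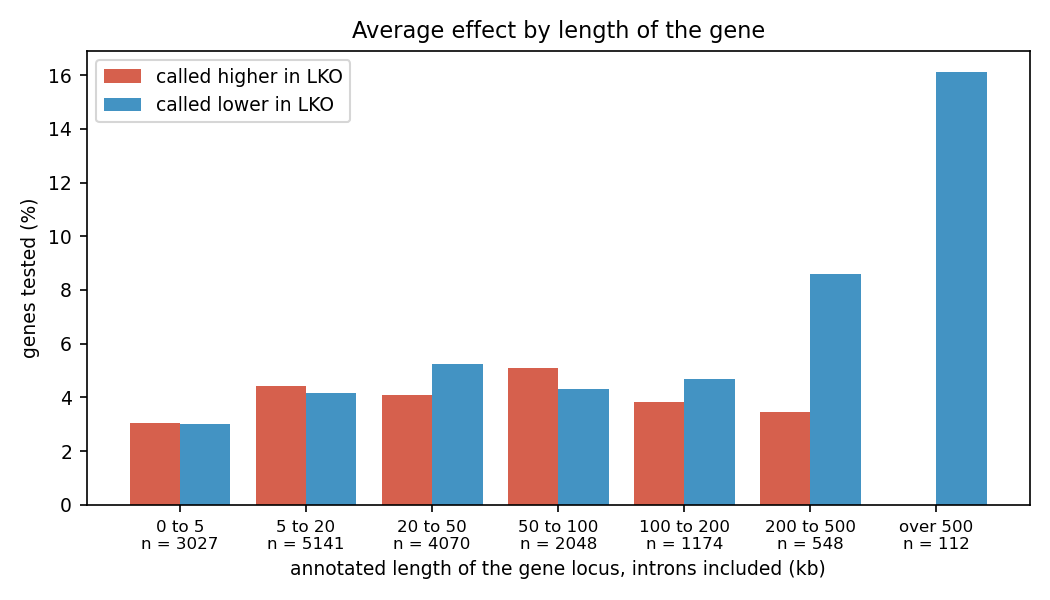
Share of tested genes called higher or lower in LKO for the average effect (vertical axis, percent) by annotated length of the gene locus with introns (horizontal axis, kb, with the number of genes tested in each class). The lower share stays between 3.01% and 5.23% below 200 kb and is 8.58% at 200 to 500 kb and 16.1% above 500 kb.

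Gene lists of liver pathways were then read for the average effect, each against the background of 4.05% called higher and 4.5% called lower and a median of -0.007 over all genes. Some lists had a large median in 1 sex or medians of opposite sign, and an average over them is not a shared change. Of the 31 acute phase genes, 17 were called higher and 14 were not called, but the median log2 change was -0.10 in males and 1.24 in females, and the difference between tables was called for 19. Saa2, a serum amyloid of the acute phase response, changed by 0.03 in males and 4.73 in females, and Crp by 0.06 in males and 1.08 in females. With a single common effect fitted in place of the mean of the 2, 1 of the 31 was called. In these female LKO livers the summed level of the neutrophil markers ran from 28.6 to 124 CPM, against 13.0 to 91.7 CPM in female floxed livers, and its part in the result was not tested.

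Lipid synthesis lists had opposite signs. The 23 genes of de novo lipogenesis had a median of 0.43 in males and -0.50 in females, with 4 called lower for the average effect and the difference called for 11. Srebf1, the transcription factor that drives the pathway, changed by 0.32 in males and -1.58 in females (average -0.63, adjusted p = 0.0145). Acss2, which makes acetyl-CoA from acetate, changed by 0.05 in males and -0.89 in females. Cholesterol synthesis had 4 of 27 called lower, with medians of 0.25 in males and -1.12 in females and the difference called for 16. Insig1, which retains SREBP in the endoplasmic reticulum, changed by -0.01 in males and -1.86 in females. Of these 27 genes, 2 had the same sign in both tables. With 1 library left out at a time, between 2 and 10 of the cholesterol genes and between 2 and 7 of the lipogenesis genes were lower.

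Other lists had the same sign in both sexes more often. In the interferon response, 21 of 26 genes had the same sign and the median was -0.14 in males and -0.28 in females, with 4 called lower, among them Ifi27 (-0.29, adjusted p = 0.00864), Cxcl10 (-0.82, adjusted p = 0.0396) and Ifit1 (-0.66, adjusted p = 0.0425). Leaving out 1 library at a time gave between 1 and 13 lower members. Among the 13 genes of the mitochondrial genome, 12 had the same sign and 5 were lower, with medians of -0.14 and -0.42. The gene mt-Nd4l changed by -0.27 in males and -0.59 in females and mt-Atp6 by -0.19 in males and -0.46 in females. Between 3 and 8 of the 13 were lower with 1 library left out. Mitochondrial reads were 5.63% to 6.05% of the counts in male floxed, 5.33% to 5.73% in male LKO, 3.31% to 4.26% in female floxed and 2.40% to 3.10% in female LKO livers.

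Of the CAR and PXR drug metabolism list, 13 of 30 genes were called lower, with a median of -0.08 in males and -1.0 in females. Cyp2b9 was common to both tables, at -0.69 in males and -0.84 in females (average -0.77, adjusted p = 8.96e-04). Cyp2c54 changed by -1.88 in males and -1.57 in females (average -1.72, adjusted p = 9.23e-04), and Cyp2b13 by -0.97 in males and -1.3 in females. Cyp2a5 fell mainly in females, at -0.23 in males and -3.3 in females. These cytochrome P450 genes have close relatives, so reads may be split among them. With a single common effect fitted, 6 of the 30 were lower.

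In the bile acid list 4 of 28 were lower, and Abcc2 and Slco1a4 were common to both tables. Akr1d1, which reduces the double bond of bile acid precursors, changed by -0.15 in males and -1.45 in females. In the list of gluconeogenesis and insulin-regulated genes, 5 of 24 were higher and 1, Gckr, was lower. Got1, an aspartate aminotransferase, changed by 0.14 in males and 1.39 in females (average 0.77, adjusted p = 0.00739), and Igfbp1, a secreted protein that insulin represses, by 0.20 in males and 3.3 in females (average 1.75, adjusted p = 0.0085). Lipid droplet genes had medians of 0.28 and 0.19, with 4 of 21 higher, among them Cidec, which enlarges droplets (1.14 in males and 2.73 in females, average 1.93, adjusted p = 0.0299). Leaving out 1 library at a time left between 0 and 9 of the 21 called, and between 3 and 8 of the gluconeogenesis list higher. The 4 lower bile acid genes became 8 without female LKO 7.

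The unfolded protein and integrated stress response list had 3 of 27 higher: Asns, which makes asparagine (1.61 in males and 2.69 in females), Atf6 (0.14 in males and 0.29 in females) and Chac1 (0.32 in males and 1.91 in females). Its medians were -0.12 in males and 0.43 in females, and 6 of the 27 had the same sign in both tables. PPARalpha targets had 3 of 27 higher, with medians of 0.08 and -0.09. Cpt1a, which admits fatty acids to mitochondria, changed by 0.25 in males and 0.36 in females (average 0.30, adjusted p = 0.0393), and Fgf21, a fasting hormone, by 0.44 in males and 1.99 in females (average 1.21, adjusted p = 0.0482). NRF2 and glutathione genes had 4 of 22 lower, with medians of -0.02 in males and -0.25 in females. Fibrosis genes had 2 of 24 lower, with medians of 0.07 in males and -0.55 in females. Of these 24, 10 had the same sign in both tables. Leaving out 1 library at a time gave between 1 and 8 higher members of the stress response list, 0 to 4 of the PPARalpha list, and 0 to 7 lower NRF2 and 0 to 4 lower fibrosis genes, so that omission of a single library could end every call in the last 3.

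Of the sex-biased genes of the growth hormone axis, 1 of 25 male-biased genes was higher and 2 were lower, and 1 of 23 female-biased genes was higher and 3 were lower. The male-biased list had medians of -0.29 in males and 0.22 in females, and the female-biased list -0.03 and -1.03. The difference between tables was called for 5 male-biased and 4 female-biased genes. Cyp17a1, a steroid hydroxylase, changed by 0.88 in males and 1.19 in females (average 1.03, adjusted p = 0.0127), and Hao2, a peroxisomal hydroxyacid oxidase, by -0.48 in males and -4.52 in females (average -2.5, adjusted p = 1.65e-04). Ghr, the growth hormone receptor, had -0.16 in males and -0.59 in females (average -0.37, adjusted p = 0.0131). The cell cycle and p53 list had 1 of 28 higher and 2 lower. Of 20 hepatocyte transcription factors, 1 was lower. The clock list had Ciart lower of 20, and the zonation list Lect2 lower of 24. Clock genes had medians of 0.08 in males and -0.47 in females, with the same sign for 6 of the 20 and the difference called for 5. With 1 library left out, male-biased genes had 0 to 1 higher and 1 to 3 lower, female-biased genes 1 to 2 higher and 3 to 7 lower, cell cycle genes 0 to 2 higher, clock genes 0 to 3 lower, zonation genes 0 to 2 lower and hepatocyte factors 1 to 2 lower.

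Further lists held the nuclear partners of the deleted gene and the ligase of Dcaf8. Of 34 matrin-3 and nuclear RNA-binding partner genes tested, 3 were lower: Matr3 itself, Malat1, a nuclear long noncoding RNA (-0.32 in males and -0.35 in females, average -0.33, adjusted p = 0.0153), and Pspc1, a paraspeckle protein (-0.42 in males and -0.46 in females, average -0.44, adjusted p = 0.042). The 3 include the deleted gene, and 4.5% of all genes tested were lower. Of the 34, 16 had the same sign in both tables, with medians of -0.11 in males and -0.02 in females. Leaving out 1 library at a time gave between 2 and 4 lower members. Of 30 CUL4-DDB1 genes, 5 were lower: Dcaf8, the scaffold Cul4b (-0.33 in males and -0.32 in females, average -0.33, adjusted p = 0.00312), the receptors Cop1 (-0.23 in males and -0.23 in females, average -0.23, adjusted p = 0.00581) and Dcaf4 (-0.27 in males and -0.55 in females), and Ddb2, a sensor of damaged DNA (-0.20 in males and -0.22 in females). Leaving out 1 library at a time gave between 3 and 6 lower members. Their falls were smaller than that of Dcaf8. The list median was -0.02 in males and 0.05 in females, and 18 of the 30 had the same sign in both tables. Upward changes were seen for 12 members in males and 18 in females. Dcaf8 had the smallest p of all genes tested, so its place among the 5 is no separate result. The share called lower over all genes tested was 4.5%.

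**Figure D5:**
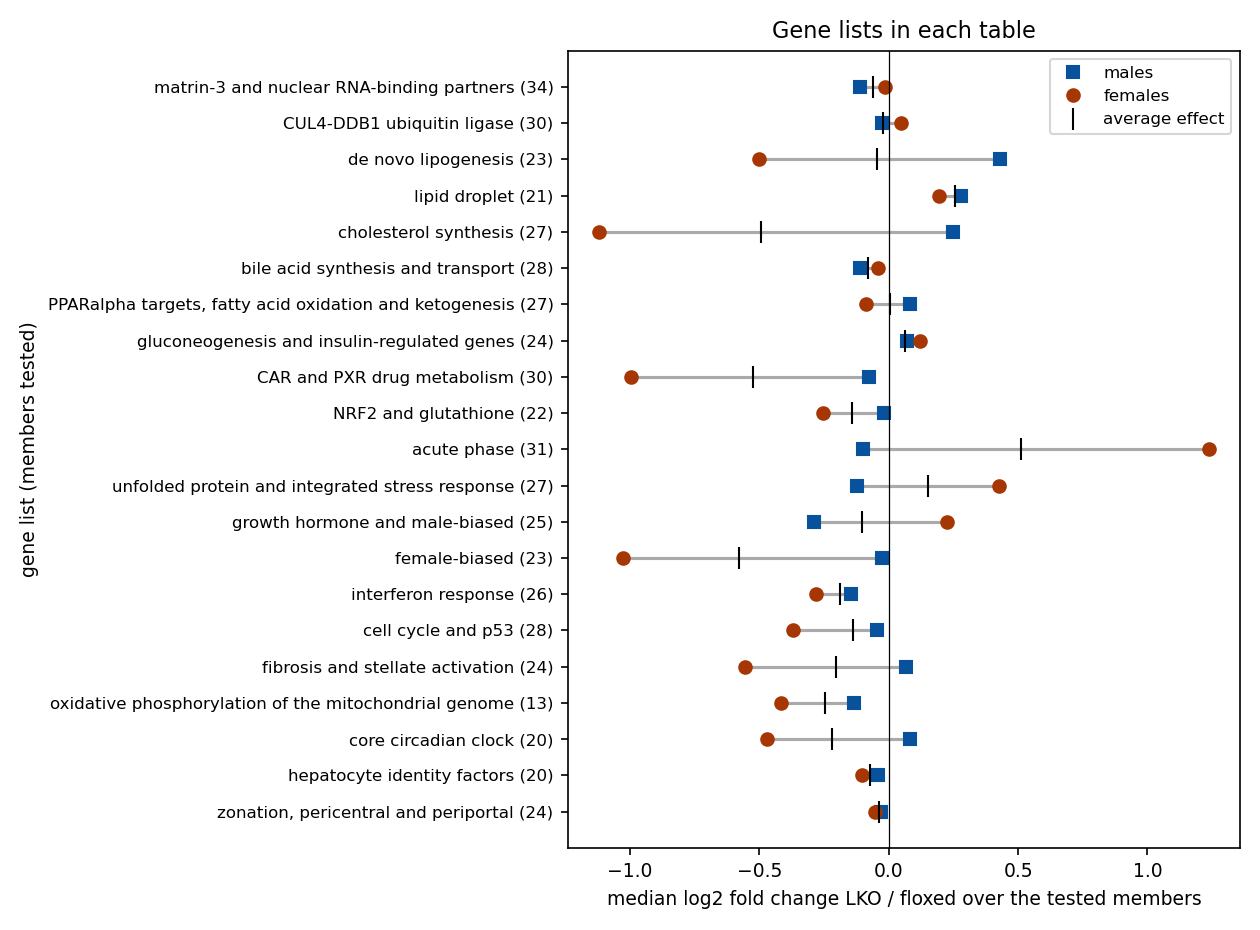
Median log2 fold change of LKO over floxed livers over the tested members of 21 gene lists, in males (squares), in females (circles) and for the average effect (bars). De novo lipogenesis runs from 0.43 in males to -0.50 in females, and acute phase from -0.10 to 1.24, while the interferon list lies below 0 in both.

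Markers of the liver's cell types were read in the same fit. Of 7 hepatocyte markers tested, 2 were lower (Alb and Ttr), and their summed level was 62354 to 79060 CPM in male floxed and 68649 to 78160 in male LKO livers, but 56839 to 66727 in female floxed against 32170 to 48135 in female LKO livers. Of 10 sinusoidal endothelial markers, 3 were lower for the average effect (Fcgr2b, Oit3 and Clec4g). All 10 changed upward in males and 1 did in females, with medians of 0.21 in males and -0.71 in females. The difference between tables was called for 6, so this average is not a shared fall. Fcgr2b, Oit3 and Clec4g each lost the call in 13 of the fits that left out 1 library. The sum over the 10 was 234 to 323 CPM in male floxed and 308 to 344 in male LKO livers. In females it was 284 to 303 CPM in floxed and 191 to 257 in LKO livers. Kupffer cell and macrophage markers summed to 279 to 438, 325 to 565, 783 to 1190.1 and 894 to 1374 CPM in those groups, and stellate cell markers to 438 to 547, 456 to 544, 510.1 to 601 and 439.6 to 504 CPM. Of the adipocyte list, Adipoq, Plin1, Retn and Lep were not tested, and Car3, which hepatocytes also express, was lower (0.16 in males and -3.49 in females). Aqp7, with an average effect of 1.14 to 1.72 over the alternatives, and Cfd were not called. All 3 tested members changed upward in males and 1 did in females. In males the summed hepatocyte markers overlapped between genotypes, and in females they did not. The part of these markers in the results was not tested.

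The 37 common genes named for a small p passed the test in each of 27 alternatives, 16 of which left out 1 library, with a highest adjusted p of 0.0205. As they were chosen for a small p in these same libraries, this was largely built in. The absence of overlap was not rechecked gene by gene. Slco1a4 and Cyp2b9, common genes named from the lists, passed in the 27 as well, with highest values of 0.0306 and 0.00284. Common genes picked after their values were seen, such as Fhit and Lipc, were not followed one by one. Members of the lists, named for the smallest p within a list only, were less stable. Cxcl10, Ifit1, Cidec, Cpt1a, Fgf21, Atf6, Chac1, Pspc1, Dcaf4, Ciart, Lect2, Alb and Ttr each lost the call when at least 1 of the libraries was left out. Saa2, Srebf1, Acss2, Insig1, Igfbp1, Got1, Akr1d1, Cyp2a5 and Car3 lost it only where a single common effect was fitted in place of the mean of the 2. Of the origin of the mice the labels say only that they were littermates, so the p-values measure the spread between these animals. The labels number male floxed 1 and 2 as L2710 and L2711 and the other mice between L2385 and L2417. What the numbers mean is not given. Male floxed 1 and 2 were left out together in 1 of the alternatives.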

How the data were processed

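Liver poly(A) RNA was sequenced as directional libraries, per the labels' protocols. The authors deposited whole-number counts per Ensembl gene, in 1 table for males and 1 for females, on the genome build mm10 per the submitters' processing notes. The aligner, the counter and the strand setting are not given in the sources used here. Both tables were joined on identifiers present in both (24 without a symbol), which held at least 99.962% of each library's counts. Symbols, coordinates and locus lengths came from GENCODE vM21 and promoters from RefSeq.

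Counts were filtered with filterByExpr (minimum count 10), scaled by TMM and fitted in edgeR 4.0.16 (R 4.3.3) by quasi-likelihood with 1 coefficient per group. The contrast was the mean of the 2 within-sex effects, with Benjamini-Hochberg adjustment over all genes tested. Overlap was judged on log2 CPM (prior count 2). The pipeline was tested on simulated data. Alternatives used DESeq2 1.42.0, limma 3.58.1 (voom), other scalings, filters and designs, and fewer libraries; scaling by library totals was added after seeing the data.

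The members and gene lists were chosen with earlier results of these data known. The genes named were Matr3, the 14 higher and 14 lower common genes with the smallest p, a mean of at least 0 log2 CPM and no predicted name, up to 20 genes called in both tables alone, up to 4 members of each gene list with the smallest p, and 3 predicted models. Genes called in opposite directions, members of the long class, Nthl1, Gm2a, Lipc, Ddb2 and the genes of the closing observations were picked after their values were seen. Some genes that the rule names are not reported here.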

Additional observations from a re-analysis of the deposited data

Results flagged for a closer look

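Over 152 tests of named genes by group, 6 groups of 4 held a library whose gap to its nearest neighbour took an unusually large share of the group's range, where chance flags about 1 group in 20. The share was 0.924 for Gm42642 in male LKO 6, which was high at 1.33 CPM. It was 0.87 for Mgmt in male floxed 4, the highest of its group at 39.0 CPM. For Gal3st1 it was 0.876 in male LKO 7, the lowest at 6.34 CPM, and for BC049987 it was 0.899 in female floxed 3, the highest at 1.59 CPM. Zfp182 in male floxed 1 (0.909, highest at 6.35 CPM) and Zfp874a in female floxed 1 (0.949, lowest at 20.9 CPM) completed the set. The 6 libraries were different ones in each case. The groups of each table did not overlap for these genes, by the rule that chose them.

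For 4 named genes the size of the effect differed between the sexes (edgeR test of the difference, female minus male log2 change). The difference was 1.5423 for Gm31333, which fell further in males (adjusted p = 0.0144), 1.2391 for BC049987 (0.027) and 1.886 for Treh (0.0206), both raised more in females, and -3.1628 for Car1 (0.0116), lowered more in females. All 4 genes changed in the same direction in both sexes, by the rule that chose them.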

How the results depend on the processing

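The count of common genes ran from 190 to 227 over the other scalings, filters and dispersion settings, limma-voom, DESeq2 and the single common effect. It became 412 without male floxed 1 and 2 and 403 without female floxed 4 and female LKO 7, and 196 to 309 with 1 library left out, where fewer samples make an absence of overlap easier to meet. Each alternative called at least 179 of the 198 in the same direction. The average effect was called for 652 genes with a single common effect, 2902 without female floxed 4 and female LKO 7, and 788 to 2252 with 1 library left out. Genes called in both tables alone numbered 162 by DESeq2 and 36 to 67 with 1 library left out. The difference between tables was called for 1353 genes by DESeq2, 243 without male floxed 1 and 2, 2030 without female floxed 4 and female LKO 7, and 407 to 1435 with 1 library left out. The cause of these moves was not tested. Matr3 stayed between -0.70 and -0.64.

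Of 117 list members tested by name, 54 lost a call or turned in at least 1 alternative. The 117 include members with no call as reported, among them Hnf4a, Col4a1 and Lgr5, which had no call to lose. The 54 are therefore not a share of the calls made. With a single common effect the calls in the lists of lipogenesis, cholesterol synthesis, lipid droplets, PPARalpha targets, NRF2, the cell cycle, fibrosis, the clock and zonation were lost. Markers with no call turned sign. For Des, average effect 0.0089 as reported, it was -0.00848 by upper quartile scaling, -0.037 by library totals and -0.051 to 0.064 with 1 library left out. For Cfd, average effect -0.46 as reported, it was 0.19 by limma-voom, 0.80 with a single common effect, 0.50 without female floxed 4 and female LKO 7, and -0.70 to 0.72 with 1 library left out. No paired analysis was possible because floxed mice carry the numbers 1 to 4 and LKO mice 5 to 8, so the groups share none. With 4 mice a group and at least 30495505 counts a library, low genes such as Gm42642 and Car1 rest on few counts.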

Other observations

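Class I antigen presentation genes were picked after their values were seen, as a description with no test of the group. H2-K1, a classical class I heavy chain, changed by -0.17 in males and -0.48 in females (average -0.33, adjusted p = 0.00484). H2-T23, a nonclassical heavy chain that natural killer cells read, changed by -0.36 in males and -0.46 in females (average -0.41, adjusted p = 9.02e-04). B2m, the light chain they share, changed by -0.25 in males and -0.38 in females (average -0.31, adjusted p = 0.00636). All 3 were common to both tables, and B2m ranged over 1846 to 2099 CPM in male floxed and 1594 to 1687 in male LKO livers, and 1619.9 to 1717 in female floxed and 1188 to 1518 in female LKO livers. The histocompatibility genes have near-identical copies, so the levels of H2-K1 and H2-T23 are uncertain.

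Among the common genes, some were neighbours or overlapped. Lrit1 and Lrit2, on chromosome 14, were lower together, Lrit2 by -1.31 in males and -1.52 in females. Lrrn3 lies inside the Immp2l locus on the other strand. Reads of the 2 genes may be shared there, because the strand setting is not known and overlap of their exons was not examined. Lrrn3 changed by -0.33 in males and -0.99 in females, and Immp2l by -0.55 in males and -0.87 in females. Sec24c, another coat protein of vesicles that leave the endoplasmic reticulum, changed by 0.18 in males and 0.24 in females beside Sec31b at 0.58 in males and 0.53 in females. Zinc finger genes went both ways: Zfp655, Zfp182 and Zfp874a were higher, while Zfp2 (-0.43), Zfp945 (-0.45), Zfp934 (-0.53) and Zfp729b (-0.21) were lower.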
